A study of Homo sapiens with 12 samples.

Results

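The 10 genes described here belong to the epithelial-mesenchymal transition (EMT) and the cadherin switch, and were followed in 12 RNA sequencing libraries from 3 human cancer cell lines. They were chosen by name, with earlier results of these data known. They include the cadherins CDH1 and CDH2, the intermediate filament gene VIM, the epithelial surface gene EPCAM and the splicing regulator ESRP1. The rest are the transcription factors ZEB1, ZEB2, SNAI1, SNAI2 and TWIST1. All 10 had 1 entry each among the 57820 genes of the count table, and all 10 were among the 17096 genes tested. A549 is a lung cancer line, SKOV3 an ovarian cancer line and MDA-MB-231 a breast cancer line, and the study describes them as lines without MYC amplification. Each line carried a lentivirus for full-length human c-Myc (MYC cells) or the empty pCDH-CMV vector (control cells, whose genotype the labels give as WT). Transduced cells were selected with puromycin. The 4 groups were MYC cells with tipifarnib, MYC cells with DMSO, control cells with tipifarnib and control cells with DMSO, each kept for 48 h and each holding 1 library per line, or 3 libraries. Tipifarnib, an inhibitor of protein farnesyltransferase, was used at 10 µM in A549 and at 20 µM in the other lines, so a difference in its effect between A549 and the other lines cannot be told apart from dose. The study asked how c-Myc over-expression changes the response to tipifarnib. No condition was repeated within a line, so p-values measure the spread between these libraries. The sample labels name no repeat transduction of a line. A MYC effect within a line thus cannot be told apart from a difference between selected cell populations.

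In an epithelium, E-cadherin (CDH1) holds neighbouring cells together at adherens junctions, and loss of it with gain of N-cadherin (CDH2) and vimentin (VIM) is the classic sign of EMT. The factors ZEB1, ZEB2, SNAI1 (Snail) and SNAI2 (Slug) bind E-box motifs in the promoters of epithelial genes and repress them, and TWIST1 is a further inducer of the programme. ESRP1 keeps the epithelial pattern of splicing, and EPCAM is an adhesion molecule of most carcinomas.

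Promoter windows were read for the members because MYC and the ZEB and SNAI factors recognise related E-boxes, and the factor genes were themselves among the genes that moved. RefSeq's promoter table (GRCh38.p14, from 250 bases before to 50 after a gene's start) held 11 windows for 4 of the 10 members, namely CDH2, VIM, ZEB1 and ZEB2. The motif CACGTG, its own reverse complement and the canonical E-box of MYC, was in 0 of these 11 windows, while 7.26% of all 35116 windows in the table held it. With so few windows, most of them neighbours at ZEB1, the 0 cannot be told apart from that share. CDH1, EPCAM, ESRP1, SNAI1, SNAI2 and TWIST1 had no window to read. The motif CACCTG, whose reverse complement is CAGGTG and which ZEB and SNAI factors bind, is a different motif from CACGTG, so no match counts under both, and 20.6% of all windows held it on either strand. It was found 3 times in the ZEB1 window at chr10:31318966-31319265 and 1 time in the ZEB1 window at chr10:31318167-31318466, and it was in none of the other member windows. With so few windows, this too cannot be told apart from the share of all windows. The ZEB1 window with 3 matches (plus strand, matches in capitals) is printed with a CDH2 window (chr18:28177081-28177380, minus strand) and the ZEB2 window (chr2:144520070-144520369, minus strand), which hold neither motif and belong to a gene that was lower in MYC cells and to one that was higher with tipifarnib in SKOV3.
ZEB1: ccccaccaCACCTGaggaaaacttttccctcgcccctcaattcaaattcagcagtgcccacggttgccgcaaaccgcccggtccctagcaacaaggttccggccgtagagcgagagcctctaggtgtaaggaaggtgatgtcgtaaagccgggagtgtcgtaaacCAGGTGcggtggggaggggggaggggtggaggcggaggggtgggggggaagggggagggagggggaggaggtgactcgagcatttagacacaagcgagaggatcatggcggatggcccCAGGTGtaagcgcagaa
CDH2: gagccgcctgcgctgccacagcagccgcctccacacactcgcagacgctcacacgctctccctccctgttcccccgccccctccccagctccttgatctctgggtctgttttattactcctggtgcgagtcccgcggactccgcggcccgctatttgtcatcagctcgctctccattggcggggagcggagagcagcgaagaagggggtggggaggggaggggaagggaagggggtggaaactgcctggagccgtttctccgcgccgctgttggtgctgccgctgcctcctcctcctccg
ZEB2: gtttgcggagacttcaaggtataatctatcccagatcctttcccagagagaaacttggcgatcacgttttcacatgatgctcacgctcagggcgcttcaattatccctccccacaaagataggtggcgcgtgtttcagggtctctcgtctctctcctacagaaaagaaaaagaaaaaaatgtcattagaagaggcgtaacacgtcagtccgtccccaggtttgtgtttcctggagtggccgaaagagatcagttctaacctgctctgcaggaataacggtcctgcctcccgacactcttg
These matches describe letters in the windows and not binding.

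Library totals ran between 20481363 and 26962994 counts on genes, and values below are CPM, read counts scaled to the TMM-adjusted library size. The over-expressed gene, MYC, exceeded its control level in each line, with log2 differences of 2.47 ± 0.28 for A549, 2.98 ± 0.28 for SKOV3 and 2.23 ± 0.27 for MDA-MB-231 (estimate ± SE, adjusted p = 0.000567, 0.000838 and 0.00892). The lines were checked against marker lists. The summed level of 8 A549 markers was 11700 to 15800 CPM in A549 and at most 751 CPM elsewhere, and that of 5 SKOV3 markers was 1740 to 7530 CPM in SKOV3 and at most 184 CPM elsewhere. The MDA-MB-231 list did not single out its line, at 567 to 831 CPM in MDA-MB-231, 1260 to 2790 CPM in SKOV3 and 499 to 777 CPM in A549, although one of its genes, IL24, had 0 reads in the other lines. All 4 epithelial keratins reached 1 CPM in every line. Leukocyte markers summed to at most 3.05 CPM, and fibroblast markers, which include collagens that cancer cells can make, to at most 401 CPM. In bulk RNA, fewer cells expressing a gene and less of its RNA per cell cannot be told apart.

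The lines differed in most of these genes, though not in all. A549 had both cadherins, SKOV3 had CDH2 with little CDH1, and MDA-MB-231 had almost no read of either. Differences between lines were tested on the lines' means over 4 libraries with edgeR's quasi-likelihood test, adjusted by Benjamini-Hochberg over all genes. Of the 10 members, 8 differed between A549 and SKOV3, where 68.9% of all genes did. Between A549 and MDA-MB-231, 9 members differed, against 67.9% of all genes, and between SKOV3 and MDA-MB-231, 8 members did, against 71.3%. These shares of members are near those of all genes.

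CDH1 averaged 41.7 ± 13.3 CPM in A549, 3.58 ± 2.18 CPM in SKOV3 and 0.0679 ± 0.0632 CPM in MDA-MB-231 (SD over the 4 libraries of a line, which span the conditions, here and below). These means rest on 3743, 351 and 6 reads. On the CPM scale, A549 had 647 times as much CDH1 as MDA-MB-231 (95% exact interval 297 to 1760, which covers counting error only) and SKOV3 had 56 times as much (25.5 to 154). The difference between A549 and SKOV3 was 3.75 ± 0.23 on the log2 scale (adjusted p = 4.45e-07). CDH2 averaged 62.8 ± 31.6 CPM in A549, 43.4 ± 20 CPM in SKOV3 and 0.27 ± 0.143 CPM in MDA-MB-231, so the gene that marks the mesenchymal side of the switch was near its floor in the line with the least CDH1. A549 was above SKOV3 in CDH2 by 0.50 ± 0.11 (adjusted p = 0.00189), although their libraries overlapped, and above MDA-MB-231 by 7.81 ± 0.18 (adjusted p = 9.09e-10).

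VIM, the intermediate filament of mesenchymal cells, ran the other way among the lines. It averaged 322 ± 133 CPM in A549, 904 ± 132 CPM in SKOV3 and 1140 ± 215 CPM in MDA-MB-231. Its log2 difference for A549 against SKOV3 was −1.58 ± 0.10 (adjusted p = 5.08e-07), and no library of A549 reached those of SKOV3. The smaller difference of SKOV3 against MDA-MB-231, at −0.31 ± 0.10 (adjusted p = 0.0156), lost its call without any one of 6 libraries, the MDA-MB-231 ones and the control tipifarnib and MYC DMSO libraries of SKOV3, and reached an adjusted p of 0.124. EPCAM did not differ between A549 and SKOV3 beyond their spread, at 27.9 ± 23.6 and 25.1 ± 15.7 CPM (log2 difference −0.02 ± 0.18, adjusted p = 0.944), and was lower in MDA-MB-231 at 4.48 ± 1.38 CPM. ESRP1 was sparse, with 286 reads over the A549 libraries, 66 over those of SKOV3 and 50 over those of MDA-MB-231. Its excess in A549 over SKOV3, 1.53 ± 0.58 (adjusted p = 0.037), was lost in DESeq2 and without any one of 6 libraries, which gave adjusted p-values up to 0.192. Against MDA-MB-231 it was 2.02 ± 0.61 (adjusted p = 0.0141), lost without the control tipifarnib or the MYC DMSO library of either line (up to 0.0783). SKOV3 and MDA-MB-231 were not told apart in ESRP1 (0.49 ± 0.66, adjusted p = 0.523).

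Among the repressors, ZEB1 and ZEB2 were lowest in A549 and highest in MDA-MB-231. ZEB1 averaged 38.8 ± 5.73 CPM in A549, 72.4 ± 13.4 CPM in SKOV3 and 124 ± 13.9 CPM in MDA-MB-231, with adjusted p-values of 0.00011 for A549 against SKOV3 and 0.000206 for SKOV3 against MDA-MB-231. For ZEB2 the means were 1.79 ± 1.47, 4.35 ± 3.08 and 33.9 ± 3.62 CPM in the same lines, and each step passed (adjusted p = 0.000417 and 2.61e-07). VIM, ZEB1 and ZEB2 each overlap an annotated antisense gene (VIM-AS1, ZEB1-AS1 and ZEB2-AS1), and the strand setting of the counting is not given in the sources used here, so reads of the partners cannot be told apart. SNAI2 had its own order, at 1.08 ± 1.43 CPM in A549, 74.2 ± 63.4 CPM in SKOV3 and 18.3 ± 13.3 CPM in MDA-MB-231. Its log2 difference was −7.17 ± 0.28 for A549 against SKOV3 (adjusted p = 2.44e-08) and 1.72 ± 0.17 for SKOV3 against MDA-MB-231 (adjusted p = 1.09e-05), although libraries of these last lines overlapped. TWIST1 averaged 5.11 ± 2.19 CPM in A549 and 12.9 ± 1.09 CPM in SKOV3 (log2 difference −1.44 ± 0.19, adjusted p = 0.000114), and 1 read was found in the 4 MDA-MB-231 libraries together. SNAI1 was alike in mean in the 3 lines, at 4.89 ± 2.88, 5.01 ± 1.76 and 5.04 ± 2.77 CPM, and no pair of lines was told apart (adjusted p of 0.576 or more). SNAI1, VIM and ZEB2 have annotated pseudogenes, and reads shared with them may have been lost or split in the counting.

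**Figure D1:**
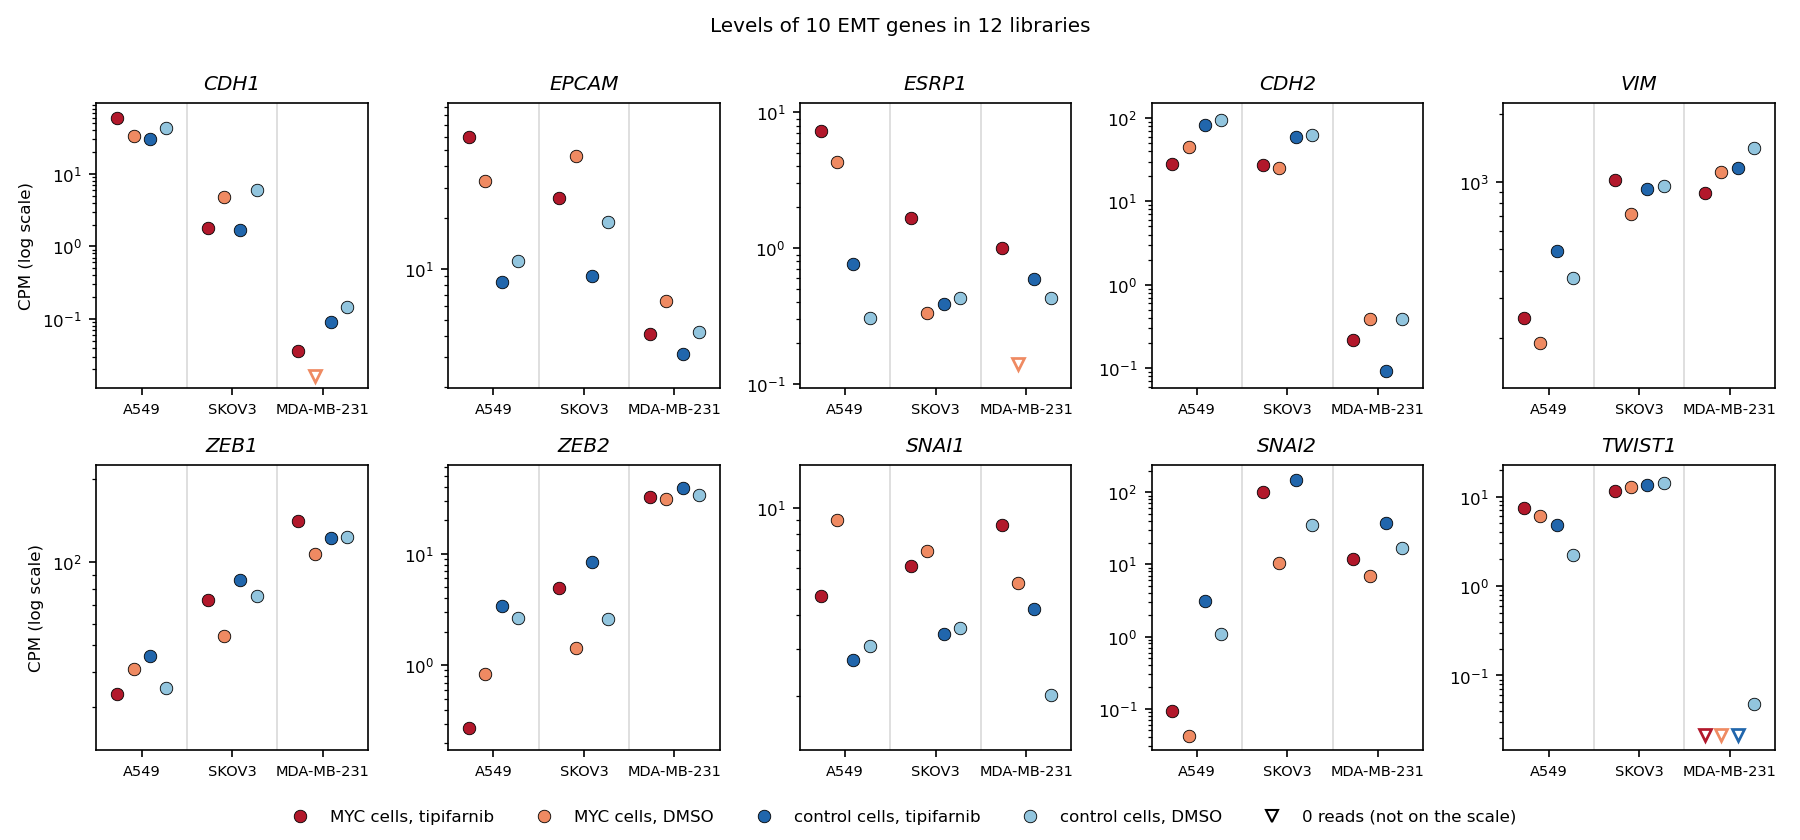
Level of the 10 genes in every library, in CPM on a log axis, 1 panel per gene; each line has, left to right, MYC cells with tipifarnib, MYC cells with DMSO, control cells with tipifarnib and control cells with DMSO, and open triangles mark libraries with 0 reads. CDH1 is highest in A549, ZEB1 and ZEB2 are highest in MDA-MB-231, SNAI2 is highest on average in SKOV3, and the lines overlap in SNAI1.

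MYC cells had more EPCAM and SNAI1 and less CDH2 than control cells over the 3 lines, with no difference in CDH1 that the test could find. Of the 10 members, these 3 passed, where 7.35% of all genes did. EPCAM was higher by 1.44 ± 0.31 on the log2 scale (adjusted p = 0.0277, higher in 6 of 6 pairs), SNAI1 was higher by 1.10 ± 0.25 (adjusted p = 0.0317, 6 of 6 pairs) and CDH2 fell by 1.12 ± 0.22 (adjusted p = 0.02, lower in 4 of 6 pairs). The 6 pairs come from 3 lines, and pairs of the same line are not independent repeats, here and below. The p-values over the lines allow for a line's level but not for a response shared by its pairs. The members moved in both directions, and their median was −0.04, beside −0.00 for all genes. SNAI2 at −1.59 ± 0.44 (adjusted p = 0.0544) and ZEB2 at −0.94 ± 0.42 (adjusted p = 0.206) were lower in 6 of 6 pairs and missed the threshold. Values for VIM were −0.49 ± 0.17 (adjusted p = 0.11), for ESRP1 1.42 ± 0.76 (0.289), for CDH1 0.06 ± 0.37 (0.941), for ZEB1 −0.15 (0.464) and for TWIST1 0.33 (0.624).

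The 3 calls were mostly lost with fewer lines. With A549 left out, the adjusted p was 0.174 for EPCAM and 0.199 for SNAI1. With SKOV3 left out it was 0.123 and 0.12 for these genes, and with MDA-MB-231 left out 0.0581 and 0.0891. CDH2 was at 0.281 without A549 and 0.123 without SKOV3, and kept its call without MDA-MB-231, where it has few reads, at 0.0353. In the other direction, SNAI2 passed in DESeq2 (adjusted p = 0.0133), as did VIM (0.0394).

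Within A549 the difference between MYC and control cells passed in 8 of the 10 members, where 17.7% of all genes passed. Of these, 4 were higher (9.94% of all genes) and 4 were lower (7.8% of all genes). CDH2, the N-cadherin gene, had 28 CPM in MYC cells with tipifarnib and 44.8 CPM in MYC cells with DMSO, against 83 CPM in control cells with tipifarnib and 95.2 CPM in control cells with DMSO. Both MYC libraries were below both control libraries, and CDH2 fell by 1.33 ± 0.15 on the log2 scale (adjusted p = 0.000568). VIM had 244 and 190 CPM in MYC cells with tipifarnib and with DMSO, against 487 and 369 CPM in control cells with tipifarnib and with DMSO. It was thus lower in both MYC libraries, by −0.98 ± 0.14 (adjusted p = 0.00179). EPCAM had 59.3 and 32.9 CPM in MYC cells with tipifarnib and with DMSO, against 8.37 and 11.1 CPM in control cells with tipifarnib and with DMSO, a rise of 2.19 ± 0.26 with no overlap (adjusted p = 0.000721). CDH1 did not go with EPCAM: it had 60.2 and 33.3 CPM in MYC cells with tipifarnib and with DMSO, against 30.7 and 42.6 CPM in control cells with tipifarnib and with DMSO. Those libraries overlapped, and the difference of 0.31 ± 0.28 did not pass (adjusted p = 0.514).

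The repressors of A549 split by gene. SNAI2 had 2 reads in MYC cells with tipifarnib and 1 read in MYC cells with DMSO, against 68 reads in control cells with tipifarnib and 25 reads in control cells with DMSO. MYC cells thus had 0.0317 times the SNAI2 of control cells on the CPM scale (95% exact interval 0.00642 to 0.0955), and the adjusted p was 0.00183. It rose past the threshold, to at most 0.0537, without the tipifarnib library of either genotype. ZEB2 had 0.276 and 0.842 CPM in MYC cells with tipifarnib and with DMSO, against 3.37 and 2.68 CPM in control cells with tipifarnib and with DMSO, so it fell by 2.42 ± 0.37 (adjusted p = 0.00252). SNAI1, a close relative of SNAI2, moved the opposite way, at 4.73 and 9.01 CPM in MYC cells with tipifarnib and with DMSO, against 2.73 and 3.08 CPM in control cells with tipifarnib and with DMSO (1.19 ± 0.27, adjusted p = 0.0164). The DMSO libraries carry that call, which was lost without either of them (up to 0.252). TWIST1 had 7.39 and 6.02 CPM in MYC cells with tipifarnib and with DMSO, against 4.78 and 2.24 CPM in control cells with tipifarnib and with DMSO (1.00 ± 0.27, adjusted p = 0.037), a call lost without either A549 DMSO library or any MDA-MB-231 library (up to 0.325). ESRP1 had 7.35 and 4.29 CPM in MYC cells with tipifarnib and with DMSO, against 0.773 and 0.308 CPM in control cells with tipifarnib and with DMSO. Its libraries did not overlap, but the rise of 3.46 ± 0.75 (adjusted p = 0.0123) was lost without any one of the 4 A549 libraries (0.0637 to 0.115). ZEB1 was at −0.11 ± 0.17 (adjusted p = 0.729). The calls of CDH2, VIM, EPCAM and ZEB2 held without each A549 library in turn.

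In SKOV3 the MYC effect passed in 3 of the 10 members, where 9.08% of all genes passed, and these were again CDH2, EPCAM and SNAI2. CDH2 had 27.2 and 25 CPM in MYC cells with tipifarnib and with DMSO, against 59.7 and 61.8 CPM in control cells with tipifarnib and with DMSO, and fell by 1.22 ± 0.15 with no overlap (adjusted p = 0.0029). The call was lost without either DMSO library of SKOV3 (up to 0.0612). EPCAM had 26 and 46.2 CPM in MYC cells with tipifarnib and with DMSO, against 9.1 and 18.9 CPM in control cells with tipifarnib and with DMSO, and rose by 1.40 ± 0.25 (adjusted p = 0.0107). Without any one SKOV3 library its adjusted p was 0.0782 to 0.12. SNAI2 had 101 and 10.4 CPM in MYC cells with tipifarnib and with DMSO, against 150 and 35.3 CPM in control cells with tipifarnib and with DMSO. MYC cells were lower at each treatment although the groups overlapped across treatments, and the change was −1.13 ± 0.24 (adjusted p = 0.0196), lost without either SKOV3 DMSO library or either MDA-MB-231 control library (up to 0.262). SNAI1 at 0.89 ± 0.27 (adjusted p = 0.0709), ZEB2 at −0.80 ± 0.28 (0.118) and VIM at −0.14 ± 0.14 (0.618) did not pass. SNAI1 and ZEB2 passed with no filter on low counts, SNAI1 also without any A549 library other than the MYC DMSO one, and ZEB2 without any one A549 library. CDH1 at −0.19 ± 0.35 (0.807), ZEB1 at −0.36 ± 0.17 (0.235), TWIST1 at −0.18 ± 0.25 (0.735) and ESRP1 at 1.06 ± 0.85 (0.516) did not pass either.

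MDA-MB-231 gave 1 member past the threshold for MYC, where 1.64% of all genes passed. SNAI2 had 11.9 and 6.94 CPM in MYC cells with tipifarnib and with DMSO, against 37.2 and 17.1 CPM in control cells with tipifarnib and with DMSO, so it fell by 1.49 ± 0.25 with no overlap (adjusted p = 0.0284). That call was lost without any one MDA-MB-231 library (0.254 to 0.488). SNAI1 had 8.67 and 5.26 CPM in MYC cells with tipifarnib and with DMSO, against 4.21 and 2.02 CPM in control cells with tipifarnib and with DMSO (1.20 ± 0.27, adjusted p = 0.0588). SNAI1 passed in DESeq2 (0.0216), with no filter on low counts (0.00221) and without any one A549 library, and VIM at −0.37 ± 0.14 (0.195) passed with no filter (0.0488). EPCAM had 4.12 and 6.42 CPM in MYC cells with tipifarnib and with DMSO, against 3.16 and 4.23 CPM in control cells with tipifarnib and with DMSO (0.50 ± 0.29, adjusted p = 0.413). CDH1 had 1 read in the MYC libraries together and 5 in the control libraries, a ratio of 0.168 with an exact interval of 0.00355 to 1.5, so no difference was detectable at this depth. Where CDH1 had 0 reads, in MYC cells with DMSO, a level of up to 0.129 CPM is allowed. ZEB1 at −0.00 ± 0.17 (adjusted p = 1), ZEB2 at −0.20 ± 0.23 (0.707), CDH2 at 0.38 ± 0.52 (0.792) and ESRP1 at −0.34 ± 0.92 (0.908) did not pass.

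Whether the MYC effect itself differed between lines was tested for each gene. None of the 10 members passed, where 3.07% of all genes did, and the lowest adjusted p-values were 0.0608 for ZEB2, 0.0845 for SNAI2, 0.096 for VIM and 0.104 for EPCAM. This depends on the fit. DESeq2 called 4 members, SNAI2 (0.000241), ZEB2 (0.00427), VIM (0.0129) and EPCAM (0.0253), where 974 of 17096 genes passed. With no filter on low counts 6 members passed, where 1843 of 33136 genes did. Without 1 library of A549 or SKOV3, up to 2 members passed, and without any MDA-MB-231 library 0 did.

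**Figure D2:**
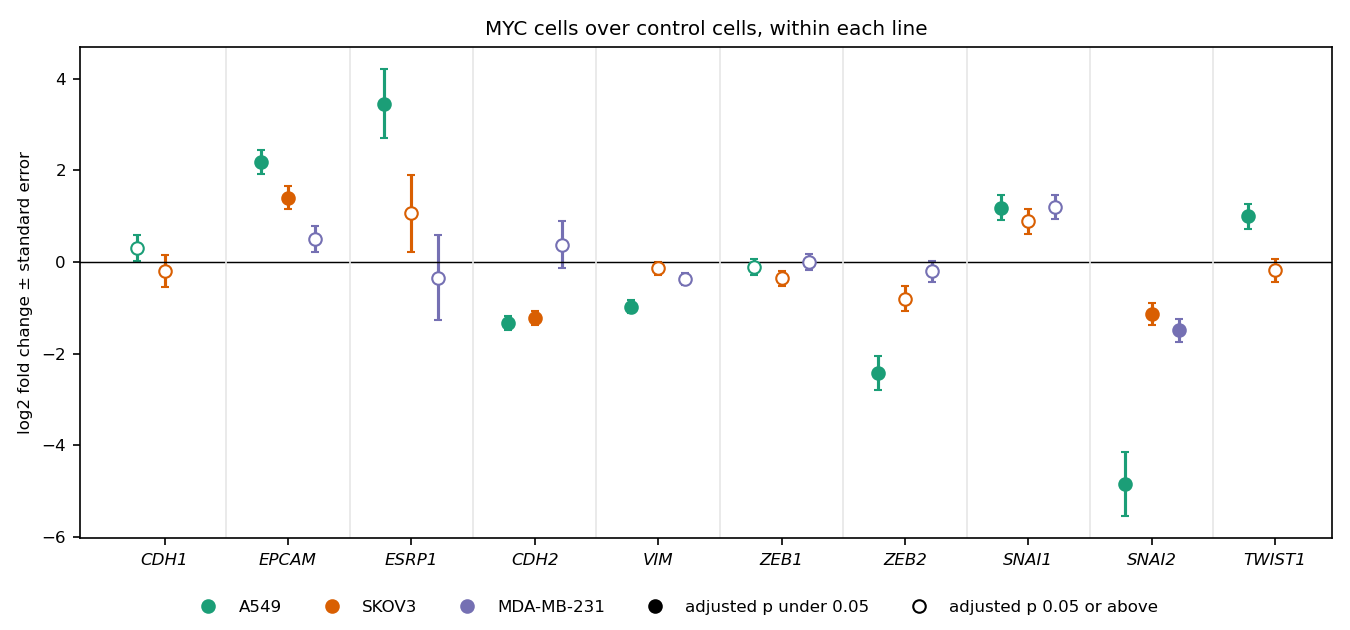
Log2 fold change of MYC over control cells for the members in each line, with standard errors, filled where the adjusted p was under 0.05; CDH1 and TWIST1 of MDA-MB-231 are left out because they have few reads or none. SNAI2 is below 0 and SNAI1 and EPCAM are above 0 in each line, while CDH2 is below 0 in A549 and SKOV3.

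Tipifarnib raised SNAI2, the Slug gene, over both genotypes and the 3 lines, and no other member passed. That is 1 of 10 members, where 11.3% of all genes passed. The change was 1.80 ± 0.45 on the log2 scale (adjusted p = 0.0308) and SNAI2 was higher with tipifarnib in 6 of 6 pairs, including an A549 MYC pair of 2 reads against 1. The adjusted p was 0.0332 without A549 and was lost without SKOV3 (0.233, with a change of 1.06) and without MDA-MB-231 (0.123, with 2.43). ZEB2 was at 0.59 ± 0.42 (adjusted p = 0.405), CDH1 at −0.59 ± 0.37 (0.346), ESRP1 at 0.99 ± 0.71 (0.41), EPCAM at −0.36 (0.492) and CDH2 at −0.28 (0.44). The median of the members was 0.15, beside 0.00 for all genes.

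SKOV3 showed the broadest response to tipifarnib among the members, with SNAI2 and ZEB2 higher and CDH1 and EPCAM lower. These are 4 of 10 members, where 14% of all genes passed in that line. SNAI2 had 101 CPM with tipifarnib and 10.4 CPM with DMSO in MYC cells, and 150 CPM with tipifarnib and 35.3 CPM with DMSO in control cells. Both tipifarnib libraries were above both DMSO libraries, the change was 2.66 ± 0.25 (adjusted p = 0.000434), and the call held without each SKOV3 library in turn (up to 0.00332). ZEB2 had 4.97 CPM with tipifarnib and 1.42 CPM with DMSO in MYC cells, and 8.4 CPM with tipifarnib and 2.6 CPM with DMSO in control cells (1.74 ± 0.29, adjusted p = 0.00417). Its call was lost without either MYC library of SKOV3 (up to 0.0596). CDH1 had 1.79 CPM with tipifarnib and 4.75 CPM with DMSO in MYC cells, and 1.71 CPM with tipifarnib and 6.08 CPM with DMSO in control cells. Both genotypes thus had less of this junction gene with tipifarnib, by −1.62 ± 0.36 (adjusted p = 0.0154). EPCAM had 26 CPM with tipifarnib and 46.2 CPM with DMSO in MYC cells, and 9.1 CPM with tipifarnib and 18.9 CPM with DMSO in control cells (−0.94 ± 0.25, adjusted p = 0.0351), so the tipifarnib and DMSO libraries overlapped across genotypes. Without any one SKOV3 library the adjusted p was 0.101 to 0.139 for CDH1 and 0.198 to 0.21 for EPCAM, whose call was also lost without any MDA-MB-231 library. CDH2 at 0.03 ± 0.15 (0.992) and VIM at 0.23 ± 0.14 (0.316) did not pass.

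In MDA-MB-231, 2 of 10 members passed for tipifarnib, a share near the 22.7% of all genes. SNAI2 had 11.9 CPM with tipifarnib and 6.94 CPM with DMSO in MYC cells, and 37.2 CPM with tipifarnib and 17.1 CPM with DMSO in control cells (0.96 ± 0.25, adjusted p = 0.022). SNAI1 had 8.67 CPM with tipifarnib and 5.26 CPM with DMSO in MYC cells, and 4.21 CPM with tipifarnib and 2.02 CPM with DMSO in control cells (0.87 ± 0.27, adjusted p = 0.0454). In both genes tipifarnib was higher in each genotype and the libraries overlapped across genotypes. Without any one MDA-MB-231 library, adjusted p-values were 0.136 to 0.289 for SNAI2 and 0.211 to 0.323 for SNAI1, and SNAI1 also lost its call in DESeq2 and without any SKOV3 library. MYC itself was higher with tipifarnib in this line by 1.20 ± 0.26 (adjusted p = 0.011), and whether this goes with the change in SNAI1 was not tested.

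A549, at the lower dose, had 0 members past the threshold, where 8.04% of all genes passed. The values nearest to it were CDH2 at −0.43 ± 0.15 (adjusted p = 0.109), SNAI2 at 1.46 ± 0.51 (0.111) and VIM at 0.38 ± 0.14 (0.124). SNAI2 passed in DESeq2 (0.0384), with no filter on low counts (0.00119) and without any one SKOV3 library, and VIM passed with no filter (0.0206). In this line CDH1 and EPCAM were higher with tipifarnib than with DMSO in MYC cells and lower in control cells, as the values above show.

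The effect of tipifarnib itself differed between lines for SNAI2 (adjusted p = 0.0382) and ZEB2 (adjusted p = 0.0405), 2 of 10 members where 7.69% of all genes passed. SNAI2 had its largest estimate in SKOV3. Leaving out 1 library at a time took away the call of SNAI2 in 6 of those fits (up to 0.199) and that of ZEB2 in 8 (up to 0.163), in each case a library of SKOV3 or MDA-MB-231. CDH1 (0.0786), SNAI1 (0.0857), VIM (0.102) and EPCAM (0.121) did not pass. CDH1 and VIM passed in DESeq2 (0.0292 and 0.0342), and with no filter on low counts all 4 did (0.00098 for EPCAM and 0.0165 for SNAI1). In DESeq2 2217 of 17096 genes passed, and with no filter 3198 of 33136 did. CDH1, EPCAM and SNAI1 also passed without either A549 control library, and VIM without either SKOV3 control library.

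**Figure D3:**
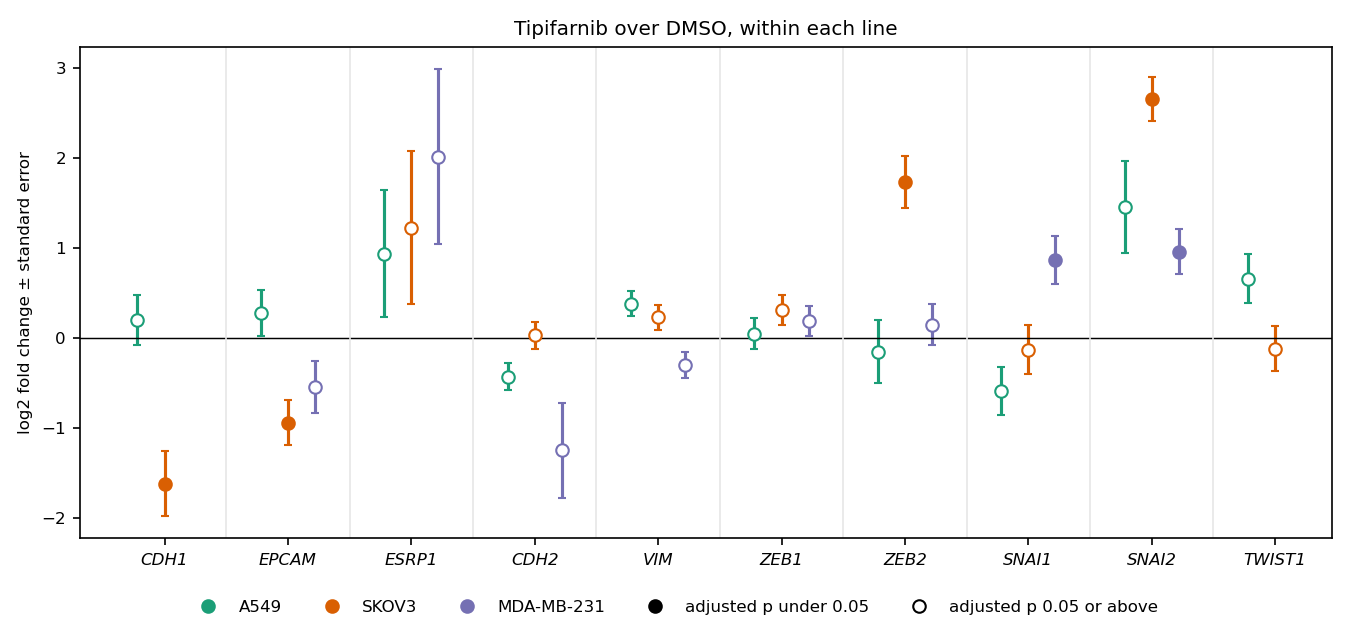
Log2 fold change of tipifarnib over DMSO for the members in each line, with standard errors, filled where the adjusted p was under 0.05; CDH1 and TWIST1 of MDA-MB-231 are left out because they have few reads or none. SNAI2 lies above 0 in each line and highest in SKOV3, where ZEB2 is also above 0 and CDH1 and EPCAM are below 0.

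The study's own question, whether the response to tipifarnib differs between MYC and control cells, gave no call among the members. Over the 3 lines the interaction passed in 0 of 17096 genes (0%) with edgeR and in 0 with DESeq2, and 125 genes were at an unadjusted p under 0.05 in edgeR. That is fewer than the share of 0.05 that genes without an effect would give, so the test erred towards no call. Differences between the lines in their responses count as error in it. The 0 thus does not show that MYC and control cells respond alike. The largest member estimates were 1.14 ± 1.44 for ESRP1 and 1.07 ± 0.72 for CDH1, and the lowest was −0.38 ± 0.50 for SNAI1, all 10 members with an adjusted p of 1. The cadherin balance is given as CDH2 reads per CDH1 read, which compares libraries and not the genes' levels, since gene length was not taken into account. In A549 it was 0.465 in MYC cells with tipifarnib and 1.35 in MYC cells with DMSO, against 2.7 in control cells with tipifarnib and 2.24 in control cells with DMSO. The MYC libraries lay below the control libraries, and tipifarnib was below DMSO in MYC cells and above it in control cells. In SKOV3 the balance was 15.2 in MYC cells with tipifarnib and 5.26 in MYC cells with DMSO, against 34.9 in control cells with tipifarnib and 10.2 in control cells with DMSO. There it was higher with tipifarnib in both genotypes and lower in MYC cells at each treatment. MDA-MB-231 had too few reads of both genes for a ratio.

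Around the members, 5 lists of further genes of the programme were counted. These lists were chosen with earlier results of these data known, so their shares and medians beside all genes are descriptions. Of 31 mesenchymal structure and matrix genes tested, 1 rose and 7 fell with MYC over the 3 lines, with a median of −0.80 beside −0.00 for all genes, of which 7.35% passed. FN1, which encodes fibronectin of the matrix, fell by 2.77 ± 0.41 on the log2 scale (adjusted p = 0.0108, 6 of 6 pairs), the gelatinase gene MMP2 by 1.73 ± 0.33 (0.0185, 5 of 6 pairs) and the matrix gene TGFBI by 1.37 ± 0.27 (0.0214, 6 of 6 pairs). SPARC, a matrix glycoprotein, fell by 1.78 ± 0.38 (0.027, 5 of 6 pairs), and AXL, COL5A1 and TAGLN also fell. The gene that rose was the collagen COL3A1, at 3.70 ± 0.84 (adjusted p = 0.0305, 4 of 6 pairs). In SKOV3 it had 3.36 CPM in MYC cells with DMSO and at most 0.347 CPM in the other libraries. In MDA-MB-231 COL3A1 did not pass 0.975 CPM, SPARC 0.768 CPM and MMP2 0.181 CPM, so their pairs in that line rest on few reads. Within lines, 3 rose and 16 fell in A549 (median −1.23), 0 rose and 14 fell in SKOV3 (median −0.92) and 0 rose and 3 fell in MDA-MB-231 (median −0.22). Of all genes, 17.7% passed in A549, 9.08% passed for SKOV3 and 1.64% for MDA-MB-231. Without A549 the adjusted p was 0.0635 for FN1, 0.173 for MMP2, 0.228 for SPARC and 0.36 for COL3A1. Without SKOV3 it was 0.0654 for FN1, 0.155 for MMP2, 0.0837 for TGFBI, 0.288 for SPARC and 0.0621 for COL3A1, while MMP2 was also lost in DESeq2 (0.0935). Without MDA-MB-231 it was 0.0551 for MMP2, 0.0895 for TGFBI and 0.0725 for COL3A1.

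Of 33 epithelial junction and polarity genes, 0 passed for MYC over the 3 lines in edgeR, where 7.35% of all genes did. Their median was 0.06, beside −0.00 for all genes. Within A549 7 were higher and 2 lower with MYC, where 17.7% of all genes passed. For SKOV3 the list had 2 higher and 4 lower, beside a share of 9.08% of all genes. MDA-MB-231 had 0, where 1.64% of all genes passed. With tipifarnib 2 rose and 9 fell in SKOV3 (median −0.43 beside −0.02 for all genes, of which 14% passed). In MDA-MB-231 12 rose and 2 fell (median 0.55 beside 0.00, with 22.7% of all genes passing), and in A549 2 rose and 1 fell (median 0.14 beside 0.00, with 8.04%). Whether the list differed between lines was not tested. The genes that fell in SKOV3 include the tight junction genes CGN, CLDN7 and TJP3, and those that rose in MDA-MB-231 include CLDN7, OCLN and TJP3. Over the 3 lines 2 rose and 1 fell, a share near the 11.3% of all genes. The claudin gene CLDN4 rose by 1.34 ± 0.26 on the log2 scale (adjusted p = 0.011), the desmoglein gene DSG2 rose by 0.28 ± 0.08 (0.0474) and the cingulin gene CGN fell by 1.25 ± 0.30 (0.0263), each in 6 of 6 pairs. None of these 3 kept its call when a line was left out, with adjusted p-values of 0.0533 to 0.0592 for CLDN4, 0.127 to 0.199 for DSG2 and 0.0508 to 0.126 for CGN.

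Of 12 epithelial regulators, 1 rose and 5 fell in SKOV3 with tipifarnib (median −0.91 beside −0.02 for all genes, of which 14% passed). In MDA-MB-231 4 rose and 0 fell (median 0.42 beside 0.00, with 22.7% of all genes passing). In A549 0 rose and 2 fell (median −0.01 beside 0.00, with 8.04%). Whether this list differed between lines was not tested. KLF4 rose in SKOV3 and MDA-MB-231. Over the lines KLF4, a Krüppel-like factor of epithelia, also rose by 1.14 ± 0.31 (adjusted p = 0.042, 5 of 6 pairs), at 0.156 without SKOV3 and 0.279 without MDA-MB-231. It was the only 1 of the 12 to pass for tipifarnib over the lines, where 11.3% of all genes passed, and 0 passed for MYC. Of 16 other EMT-associated transcription factors, 2 rose and 0 fell with tipifarnib over the lines, a share near the 11.3% of all genes (median −0.13 beside 0.00). SNAI3, a relative of SNAI1 and SNAI2, rose by 1.41 ± 0.33 (adjusted p = 0.0236, 6 of 6 pairs) and ETS1 by 0.65 ± 0.19 (0.0488, 5 of 6 pairs). Within lines, 3 rose and 2 fell in SKOV3, 0 rose and 1 fell in MDA-MB-231 and 0 passed in A549, beside the shares of all genes given above. Leaving out a line gave adjusted p-values of 0.0846 to 0.12 for SNAI3 and 0.0564 to 0.248 for ETS1. With MYC 0 of the 16 passed over the lines, where 7.35% of all genes did. In A549 2 were higher and 6 lower, where 17.7% of all genes passed.

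In the cadherin and catenin list, 15 genes were tested. With tipifarnib 0 rose and 4 fell (median −0.04 beside 0.00 for all genes, of which 11.3% passed). With MYC 0 rose and 2 fell (median −0.34 beside −0.00, with 7.35% of all genes passing). CTNNB1, which encodes β-catenin at the cytoplasmic tail of cadherins, fell with tipifarnib by 0.39 ± 0.09 (adjusted p = 0.0227) and with MYC by 0.34 ± 0.09 (0.0489), each in 6 of 6 pairs. CTNND1, the gene of p120-catenin, fell with tipifarnib by 0.31 ± 0.08 (adjusted p = 0.0407) and CTNNAL1 by 0.48 ± 0.12 (0.034), and NECTIN2, an adhesion molecule of the same junctions, fell with MYC by 0.41 ± 0.09 (0.027), each in 6 of 6 pairs. Leaving out any 1 line ended each of these calls, with adjusted p-values between 0.0545 and 0.361.

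**Figure D4:**
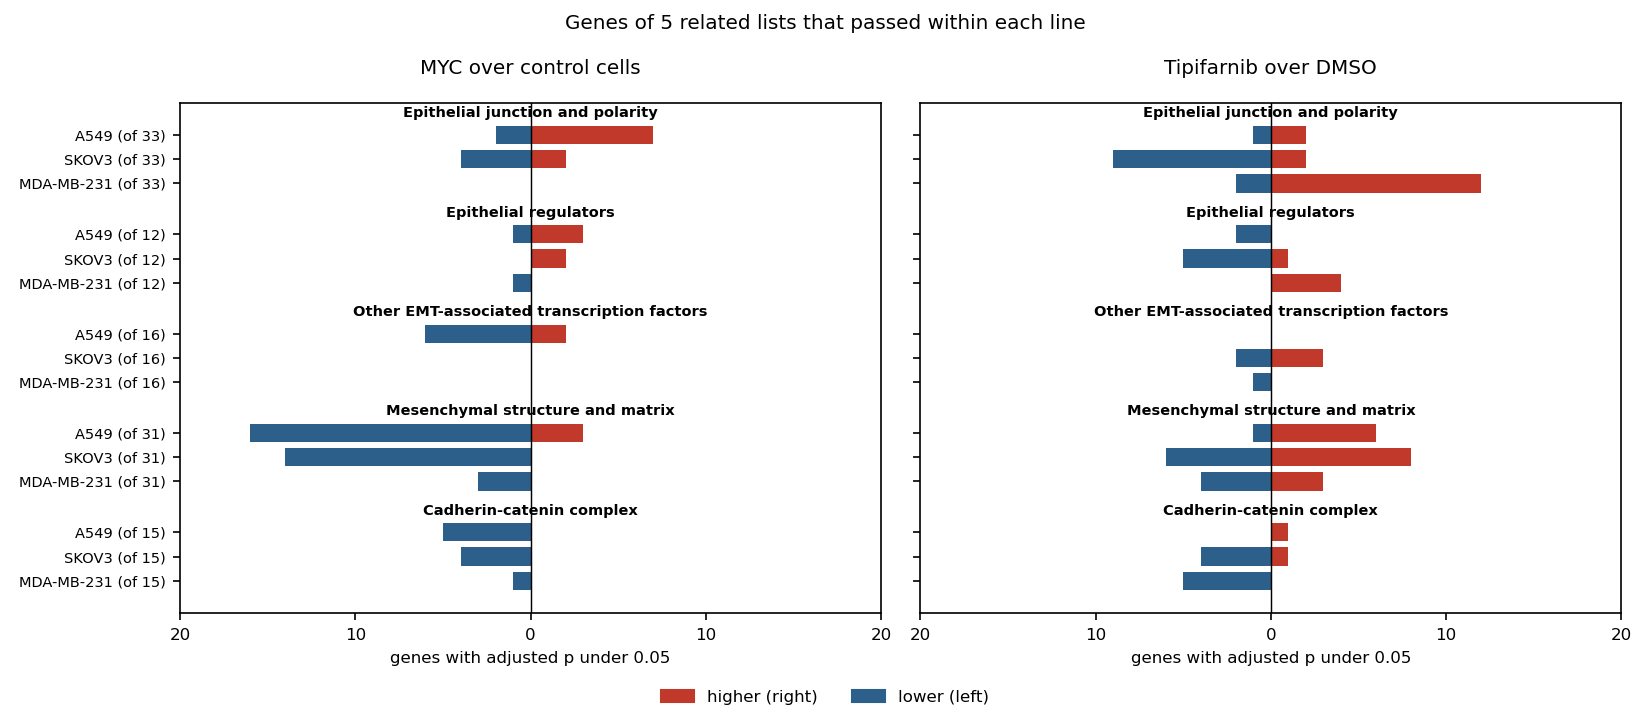
Number of genes of each list that passed the test at an adjusted p under 0.05, higher to the right and lower to the left of 0, for tipifarnib over DMSO and for MYC over control cells in each line. The longest bars are the 16 and 14 mesenchymal genes lower in MYC cells of A549 and SKOV3 and the 12 epithelial junction genes higher with tipifarnib in MDA-MB-231.

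Genes whose pattern was most like a member's over the 12 libraries were led by differences between lines. Pearson's r on log2 CPM, given as a description among 11588 genes, was highest with CDH1 for COL5A2 (0.991), with CDH2 for DAPK1 (0.991), with VIM for CAVIN3 (0.979) and with ZEB1 for ADAMTS6 (0.985). After each line's mean was taken off, which leaves the changes with virus and treatment, the nearest genes were B3GNT7 for CDH1 (0.916), NXN for CDH2 (0.941), PMEPA1 for VIM (0.964) and DNAL4 for ZEB1 (0.954). The points share the 3 lines and their libraries.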

How the data were processed

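The authors deposited raw counts of reads per gene for each of the 12 libraries. The submitters' processing notes name TopHat2, HTSeq, DESeq2 and hg19, and versions, the annotation release and the strand setting are not given in the sources used here. The 5 summary entries of HTSeq, 17.5% to 19.9% of a column, were left out. Genes were filtered with filterByExpr over the 4 groups (17096 kept of 33136 with any count), scaled by TMM (factors 0.914 to 1.08) and tested with the quasi-likelihood test of edgeR 4.0.16 in R 4.3.3, adjusted by Benjamini-Hochberg over all genes, with a threshold of 0.05.

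Effects over the lines came from a model with the 4 groups and the line as a block (6 residual degrees of freedom), because same-numbered libraries come from the same line. Their deviations from the group means correlated at 0.829 to 0.922 in 18 pairs, and at -0.551 to -0.307 in 36 pairs of other lines. Deviations of the libraries of a group add up to 0, so negative values between lines arise by construction. The correlations thus describe the lines and do not test the pairing. Effects within a line and differences between lines came from a model with a mean, a MYC effect and a tipifarnib effect per line (3 residual degrees of freedom), in which the departure from additivity within a line is the error. CPM are counts over the TMM-scaled library size, and log2 CPM used a prior count of 2. Intervals on read ratios are 95% exact intervals, and a count of 0 allows 3 reads. Scripts were tested on simulated data.

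All members were tested in every comparison, those not named for an effect of MYC or tipifarnib did not pass it, and from each list up to 4 genes per direction with the smallest p among those that passed over the lines. For lines against each other, only 4 cadherins (CDH4, CDH6, CDH13 and CDH24) are described, for brevity. They were chosen after their values were seen, and CDH3 and CDH5 are named as running the other way. Not every gene these rules name is reported here. Likeness was computed for CDH1, CDH2, VIM and ZEB1 among genes with a mean log2 CPM of at least 1. The members and lists were chosen with earlier results of these data known. Alternatives were the size factors of DESeq2, no filter on low counts, DESeq2 1.42.0, no line block, and leaving out each line or library.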

Additional observations from a re-analysis of the deposited data

Results flagged for a closer look

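The effect of tipifarnib differed between the 3 lines for SNAI2 (adjusted p = 0.0382, edgeR F test over the per-line effects). Its log2 change with tipifarnib was 2.66 ± 0.25 in SKOV3, 1.46 ± 0.51 in A549 and 0.96 ± 0.25 in MDA-MB-231. It also differed for ZEB2 (adjusted p = 0.0405), with 1.74 ± 0.29 in SKOV3, 0.15 ± 0.23 in MDA-MB-231 and -0.15 ± 0.35 in A549. The dose was 10 µM in A549 and 20 µM in the other lines, so dose and line cannot be told apart for A549.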

How the results depend on the processing

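Counts of genes past the threshold over the lines moved with the tool and the lines. For tipifarnib 1929 genes passed, with 2997 in DESeq2 and between 87 and 1174 without 1 line, and for MYC 1256 passed, with 2405 in DESeq2 and between 10 and 148 without 1 line. In the fit with no replicate block, which ignores the pairing by line, 0 passed for tipifarnib and 0 for MYC. The interaction gave 0 in every fit, also without the block. Leaving out single libraries gave 317 to 1379 for tipifarnib in A549 (1374), 492 to 2910 in SKOV3 (2401) and 528 to 4355 in MDA-MB-231 (3878). For MYC it gave 1051 to 3068 in A549 (3034), 137 to 1943 in SKOV3 (1553) and 0 to 624 in MDA-MB-231 (281). Between lines it gave 10862 to 11748 for A549 against SKOV3 (11774), 10132 to 11853 for A549 against MDA-MB-231 (11608) and 10907 to 12658 for SKOV3 against MDA-MB-231 (12194). With no filter on low counts the counts were 2321 for tipifarnib in A549, 2441 for MYC in SKOV3 and 1309 for MYC in MDA-MB-231, where DESeq2 gave 873. Genes whose tipifarnib effect differed between lines numbered 1314, with 3198 unfiltered, 2217 in DESeq2 and 65 to 1949 without 1 library, and for the MYC effect 524, with 1843, 974 and 136 to 641. The cause was not tested.

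No called value of a member or named gene changed its sign, and 78 of 2284 values under alternatives changed sign with no call either way. Among members, leaving out lines or libraries kept 1279 results on their side of the threshold, ended 94 calls and gave 37, and the other alternatives kept 415, ended 6 and gave 29. Depth limits CDH1, CDH2, TWIST1 and ESRP1 in MDA-MB-231 and SNAI2 in A549 MYC cells, where a few reads set the value.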

Other observations

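Some other cadherins were present in the lines that had little CDH1. Those described here were chosen after their values were seen, and others ran the other way. CDH5 was higher in A549, the line with the most CDH1, at 0.572 to 2.76 CPM, than in SKOV3, at 0 CPM. CDH3 was lower in MDA-MB-231 than in A549 and in SKOV3. CDH4, the R-cadherin gene, had 108 CPM in MYC cells of MDA-MB-231 with tipifarnib and 140 CPM in MYC cells with DMSO, against 176 CPM in control cells with tipifarnib and 233 CPM in control cells with DMSO. A549 had 1.06 and 0.337 CPM of CDH4 in MYC cells with tipifarnib and with DMSO, against 68.5 and 18.6 CPM in control cells with tipifarnib and with DMSO, and SKOV3 did not pass 0.262 CPM. The log2 difference of SKOV3 against MDA-MB-231 was -9.92 ± 0.16 (adjusted p = 1.62e-10, edgeR), and in both A549 and MDA-MB-231 CDH4 was among the genes that fell with MYC. CDH24 was also higher in MDA-MB-231, at 19.3 to 33.4 CPM, with log2 differences of -1.01 ± 0.17 for A549 against MDA-MB-231 (adjusted p = 0.000499) and -1.14 ± 0.17 for SKOV3 against MDA-MB-231 (adjusted p = 0.000212).

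CDH6, the K-cadherin gene, was higher in SKOV3 than in MDA-MB-231 by 10.37 ± 0.33 (adjusted p = 4.66e-09). In SKOV3 it had 17.2 CPM with tipifarnib and 143 CPM with DMSO in MYC cells, and 51.5 CPM with tipifarnib and 253 CPM with DMSO in control cells, and in the other lines it did not pass 3.34 CPM. CDH13, the T-cadherin gene, had 7.44 to 53.7 CPM in SKOV3 and at most 0.144 CPM in the other lines (7.86 ± 0.41 for SKOV3 against MDA-MB-231, adjusted p = 3.01e-07). The log2 change of CDH6 with tipifarnib over the lines was -1.88 ± 0.43 (adjusted p = 0.0234, lower in 5 of 6 pairs), and the adjusted p was 0.811 without SKOV3 and 0.161 without MDA-MB-231, and 0.0935 in DESeq2.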
